A study of Homo sapiens with 12 samples.

Results

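TBP, HPRT1, YWHAZ, PPIA, IPO8 and POLR2A are 6 candidate reference genes for qPCR, taken by gene symbol from the 58735 genes of the RNA-seq table. The question was how steady their levels were across cell line and treatment, beside GAPDH, which served as the reference of the study's own qPCR, and ACTB. KGN and COV434, human cell lines labelled as granulosa cell tumour of the ovary, were left untreated or were treated for 72 h with 77-39, a SIRT3 inhibitor, in 4 groups of 3 libraries each. The dose is labelled as 10 in a unit written as μm/ml, which leaves it open, and the controls carry the same treatment text, so treated and control were taken from the sample titles. All libraries share 1 medium with heat-inactivated serum and the genotype WT. Each line stands for 1 tumour, and nothing in the labels says whether the 3 libraries of a group came from separate cultures, so p-values measure the spread between these libraries, which may be technical.

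A qPCR reference gene is the gene whose signal divides that of the gene of interest, so it should keep its level between the conditions compared. If the reference falls, every gene divided by it appears to rise by the same factor. The 6 candidates were taken from different cell functions: TBP and POLR2A serve transcription, HPRT1 nucleotide salvage, YWHAZ signalling, PPIA protein folding and IPO8 nuclear import. GAPDH is an enzyme of glycolysis and ACTB the cytoplasmic beta-actin of the cytoskeleton.

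The values were FPKM, the fragments on a gene per kilobase of its length and by the fragments of the library, and 15547851 to 18280415 reads on genes were recovered for each library. The line labels went against the markers of the lines. FOXL2, the transcription factor of granulosa cells that marks KGN, was at 0 to 0.0195 FPKM in the 6 libraries labelled KGN and at 11.5 to 13.96 FPKM in the 6 labelled COV434. SMARCA2, a chromatin remodelling ATPase that COV434 is known to lack, was at 0.00296 to 0.00870 FPKM in the libraries labelled KGN and at 4.51 to 6.48 FPKM in those labelled COV434. SMARCA4, the alternative ATPase of the same complexes and also known to be lost in COV434, was at 2.25 to 2.60 FPKM and 6.51 to 12.6 FPKM, in the same order. Its RNA was thus lower in the libraries labelled KGN but not absent. The keratin gene KRT18 was at 0 to 0.0176 and 161 to 223 FPKM. Libraries are therefore named by their label throughout. Of the other granulosa markers, AMH was at 4.07 to 9.14 FPKM and INHA at 0.580 to 5.22 FPKM over all libraries, higher in every library labelled COV434. FSHR was at 0 in all 12 libraries, and INHBA, CYP19A1, FST and STAR stayed at or below 0.198 FPKM. Both libraries numbered 1 that are labelled COV434 stood apart from the others of that label in several candidates, and values without them are given where they matter.

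The promoters of IPO8 and PPIA, the candidates with the smallest and the largest SD of the 4 group means, and of GAPDH are shown to give the sequence context of these genes. They run from 250 bases before to 50 bases after the transcription start, 5′ to 3′ on the gene's own strand, from RefSeq on GRCh38.p14. The IPO8 promoter is at chr12:30695820-30696119 on the minus strand, that of PPIA at chr7:44796431-44796730 on the plus strand, and that of GAPDH at chr12:6535014-6535313 on the plus strand. The GAPDH window lies inside the gene, whose annotated range starts at 6533927, so matches in it describe an internal start only. The sequence before the outer start of GAPDH was not examined. Capitals mark TATAAA, the core of the TATA box to which the TBP protein binds, and ACGTG, the core of the hypoxia response element, on either strand.
IPO8: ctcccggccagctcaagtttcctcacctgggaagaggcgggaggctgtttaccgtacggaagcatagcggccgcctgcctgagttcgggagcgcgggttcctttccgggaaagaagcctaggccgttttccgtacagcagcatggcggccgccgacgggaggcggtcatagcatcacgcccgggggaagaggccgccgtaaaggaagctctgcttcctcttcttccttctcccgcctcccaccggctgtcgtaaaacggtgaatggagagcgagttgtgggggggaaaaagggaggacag
PPIA: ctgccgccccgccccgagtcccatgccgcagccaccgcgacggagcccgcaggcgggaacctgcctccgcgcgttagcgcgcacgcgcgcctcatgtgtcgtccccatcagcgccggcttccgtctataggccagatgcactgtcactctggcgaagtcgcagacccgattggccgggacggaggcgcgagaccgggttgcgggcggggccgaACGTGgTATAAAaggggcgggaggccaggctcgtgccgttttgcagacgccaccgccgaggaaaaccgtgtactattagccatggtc
GAPDH: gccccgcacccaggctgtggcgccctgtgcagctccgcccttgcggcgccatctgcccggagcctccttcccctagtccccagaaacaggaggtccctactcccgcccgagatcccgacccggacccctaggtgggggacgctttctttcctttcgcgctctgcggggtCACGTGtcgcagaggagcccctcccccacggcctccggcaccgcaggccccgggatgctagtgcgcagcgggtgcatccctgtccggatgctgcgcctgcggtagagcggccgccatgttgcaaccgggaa
Among the 6 candidates, 5 had a promoter in the RefSeq table used, and YWHAZ and ACTB had none there. TATAAA was found in PPIA, starting 31 bases before the transcription start, and in none of the other 4 candidates or the internal GAPDH window. It is held on either strand by 11.5% of the 35116 promoters. ACGTG, held by 21.4% of all promoters, was found once in PPIA and on both strands of 1 overlapping site in GAPDH. GGGCGG, the GC box bound by SP1, was found 4 times each in PPIA and HPRT1, 2 times each in POLR2A and GAPDH, once in TBP and not in IPO8, against 45.0% of all promoters with at least 1. All 5 candidate promoters were rich in CpG, with 21 in TBP, 26 in IPO8, 28 in POLR2A, 30 in HPRT1 and 40 in PPIA, against a median of 14 over all promoters. A match is a description of the letters in this window and not a measured binding site.

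TBP, the TATA-binding protein that nucleates the TFIID complex, was at 10.0, 9.09 and 8.81 FPKM in the 3 control libraries labelled KGN. After 77-39 it was at 6.94, 7.79 and 8.33 FPKM. All 3 treated libraries lay below all 3 controls. The share of all genes that separate in this way was not computed, so such statements, here and below, only describe the values. The log2 difference was -0.25 (SE 0.0751, limma adjusted p = 0.0413). Leaving out 1 library at a time moved the difference between -0.30 and -0.19, and the adjusted p stayed under 0.05 only without treated library 3 (0.0301) and lay between 0.0621 and 0.109 in the other 5 fits. TBP in the libraries labelled COV434 was at 5.39, 6.85 and 7.37 FPKM without and at 5.45, 6.57 and 6.83 FPKM with 77-39, and the groups overlapped (log2 difference -0.05, 95% confidence interval -0.42 to 0.33, adjusted p = 0.988). Untreated libraries labelled KGN were higher than those labelled COV434 by 0.46 on the log2 scale (SE 0.122, adjusted p = 0.0135). TBP had the lowest level of the candidates per length, a mean of 7.45 FPKM over 12 libraries, resting on 189 to 431 reads, so that counting error alone reached 7.27% of a library's value. In such bulk libraries a smaller number of expressing cells and less RNA per cell cannot be told apart.

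POLR2A, the largest subunit of RNA polymerase II, was at 29.2, 36.1 and 36.0 FPKM in the control libraries labelled KGN and at 26.1, 26.1 and 24.4 FPKM after 77-39. The treated libraries again lay below every control, and control library 1 was the nearest to them. The log2 difference was -0.38 (SE 0.0871, adjusted p = 0.0156). The adjusted p was 0.0519 without control library 2 and 0.0546 without control library 3, and the difference then was -0.33 in both cases. POLR2A in the libraries labelled COV434 was at 54.6, 29.2 and 36.8 FPKM untreated and at 40.2, 32.8 and 26.6 FPKM treated. Library 1 was the highest of each group, the groups overlapped, and the log2 difference was -0.24 (95% confidence interval -0.82 to 0.33, adjusted p = 0.914). It ran from -0.44 to -0.0022 when 1 library was left out and was -0.15 without both libraries numbered 1. The untreated lines differed by -0.21 (SE 0.229, adjusted p = 0.450), labelled KGN minus labelled COV434, and by 0.03 without both COV434 libraries numbered 1.

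HPRT1, the enzyme that salvages hypoxanthine and guanine for purine nucleotides, was at 34.4, 36.7 and 35.4 FPKM in the control libraries labelled KGN and at 30.1, 33.7 and 31.7 FPKM after 77-39. The treated libraries lay just below the controls without overlap, yet the log2 difference of -0.15 (SE 0.0543) had an adjusted p of 0.0693. HPRT1 in the libraries labelled COV434 was at 40.2, 61.8 and 57.1 FPKM untreated and at 43.1, 54.0 and 56.4 FPKM treated. Library 1 was the lowest of each of these groups, and the difference was -0.04 (95% confidence interval -0.51 to 0.43). HPRT1 was lower in untreated libraries labelled KGN than in those labelled COV434, with a log2 difference of -0.54 (SE 0.167, adjusted p = 0.0241). Leaving out any 1 library other than COV434 control library 1 raised that adjusted p to between 0.0579 and 0.0836, and after quantile normalization the difference was -0.09 (adjusted p = 0.573).

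YWHAZ, the zeta isoform of the 14-3-3 adaptor proteins that bind phosphorylated partners, was at 45.4, 47.2 and 46.2 FPKM in control and at 46.7, 48.7 and 45.7 FPKM in treated libraries labelled KGN. The values overlapped and lay within a narrow band, with a log2 difference of 0.02 (SE 0.0439, 95% confidence interval -0.08 to 0.13, adjusted p = 0.725). YWHAZ in the libraries labelled COV434 was at 74.4, 67.5 and 66.9 FPKM untreated and at 80.9, 60.5 and 66.1 FPKM treated, with a difference of -0.02 (95% confidence interval -0.40 to 0.36). Untreated libraries labelled KGN were lower by a log2 difference of -0.58 (SE 0.0893, adjusted p = 0.00114), and none of the 6 libraries labelled KGN reached the lowest of those labelled COV434. After quantile normalization this difference was -0.12 (adjusted p = 0.346), so the call between lines changes with this scaling.

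PPIA encodes cyclophilin A, a peptidyl-prolyl isomerase of protein folding and the target of ciclosporin. It was at 145, 138 and 131 FPKM in control and at 124, 134 and 142 FPKM in treated libraries labelled KGN, which overlapped (log2 difference -0.05, SE 0.0678, adjusted p = 0.604). Libraries labelled COV434 held it at 290, 634 and 507 FPKM untreated and at 233, 477 and 426 FPKM treated. Library 1 of each group lay far below the other libraries there, and the interval of the difference of -0.32 ran from -1.15 to 0.50 (adjusted p = 0.924). Leaving out 1 library at a time moved it between -0.65 and -0.0085, and it was -0.33 without both libraries numbered 1. The treated library lay below the control library of the same number for all 3 numbers, though no label pairs them. With the number as a block the interval was -0.56 to -0.09 (limma unadjusted p = 0.0149, adjusted p = 0.217). Every library labelled COV434 was above every library labelled KGN. The difference between the untreated lines was -1.71 (SE 0.280, adjusted p = 0.00152), and -2.03 without both COV434 libraries numbered 1. The table lists 88 PPIA pseudogenes by name, 39 of them above 0. They held 1.46% to 3.69% of the reads of PPIA and its pseudogenes together, and adding them changed the difference between the untreated lines, on the log2 scale of recovered reads over library reads, from -1.72 to -1.73.

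The ratio of PPIA to POLR2A shows how the candidates moved apart within 1 label. It was 3.65 to 5.84 in the 6 libraries labelled KGN. In those labelled COV434 it was 5.31 and 5.81 in the untreated and the treated library 1 and 13.8 to 21.7 in the other 4. Treated library 1 of this label also held the highest share of mitochondrially encoded reads of all 12 libraries, 13.5%, against 7.30% to 9.63% in the others. The part of these library differences in the candidates' spread was not tested.

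IPO8, a nuclear import receptor of the importin beta family, was at 13.5, 13.3 and 13.3 FPKM in control and at 14.004, 14.2 and 13.0 FPKM in treated libraries labelled KGN. The difference was 0.04 (SE 0.0470, 95% confidence interval -0.07 to 0.15, adjusted p = 0.548). Libraries labelled COV434 held it at 13.8, 15.7 and 14.6 FPKM untreated and at 15.9, 13.9 and 9.24 FPKM treated. Treated library 3 was the only library of the 12 below 13.0 FPKM. The treated group thus had an SD of 3.40 FPKM around its mean of 13.0, and the difference was -0.19 (95% confidence interval -0.65 to 0.27), or 0.02 without that library. The untreated lines differed by -0.13 (SE 0.0815, 95% confidence interval -0.32 to 0.07, adjusted p = 0.202).

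**Figure D1:**
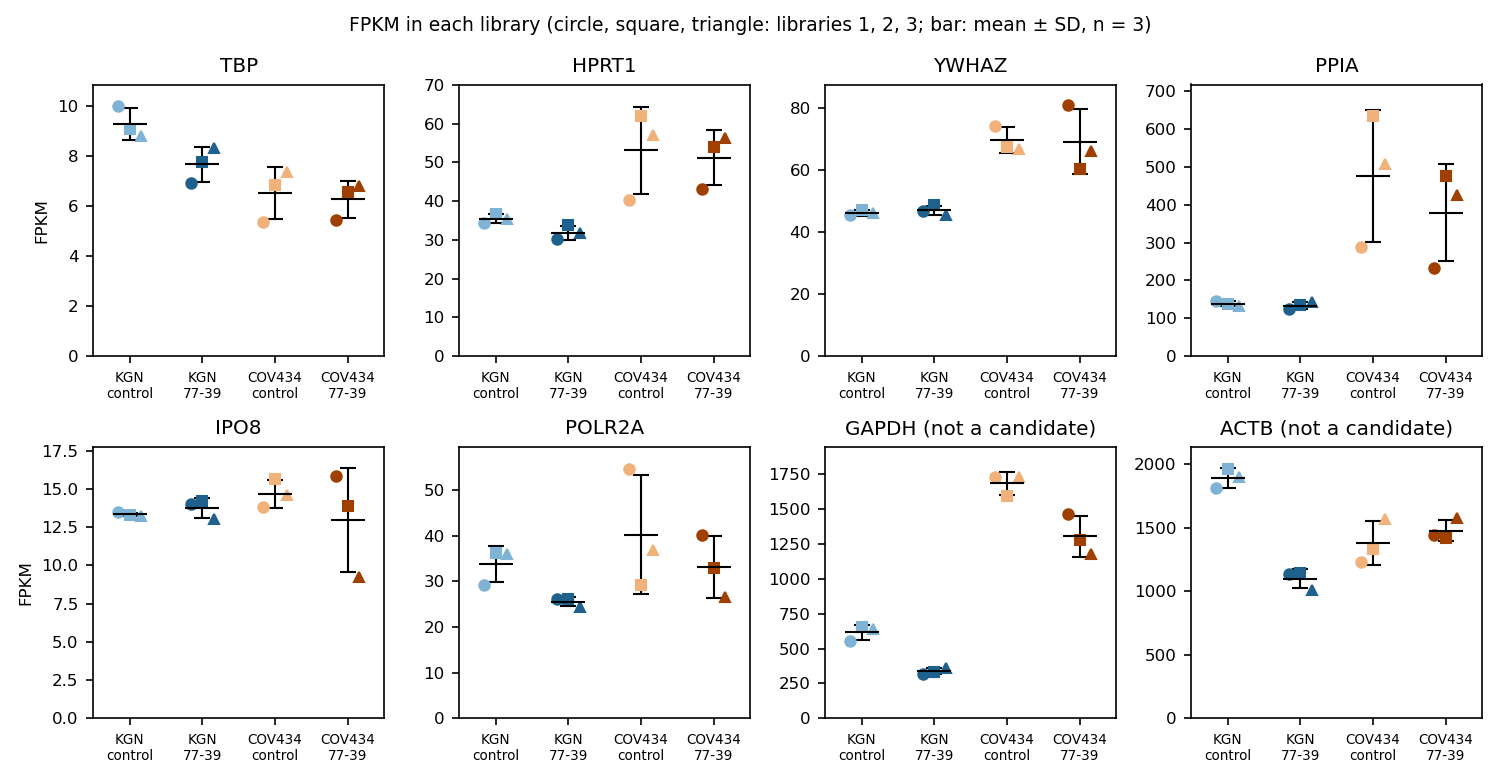
FPKM (vertical axes, from 0) of the 6 candidates, GAPDH and ACTB in the 12 libraries, grouped by labelled line and treatment; symbols mark libraries 1, 2 and 3, and bars the mean ± SD of 3. IPO8 sat near 13 to 16 FPKM in 11 libraries, PPIA was above 230 FPKM in all libraries labelled COV434 and below 150 in those labelled KGN, and GAPDH was at most 360 FPKM in the treated libraries labelled KGN.

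Set against all genes, the treatment calls among the candidates were not unusual in number. The candidates TBP and POLR2A, 2 of 6, passed an adjusted p of 0.05 in the libraries labelled KGN, where 34% of the 12671 genes tested did. Of the same 6, 0 passed in the libraries labelled COV434, where 0.0415% of 12060 genes did. None of the 6 had an unadjusted p under 0.05 there, against 965 of the 12060 genes. Voom on the recovered reads called none of them, against 27 of all genes. Blocking on the library number gave 87 calls among all genes labelled COV434 in place of 5, again with 0 of 6 candidates. No label states this pairing, which rests on a pattern seen in these same values. The test of the difference between the 2 responses, the interaction of line and treatment, called 0 of 6 candidates (adjusted p of 0.597 to 0.927), against 3.6% of 13127 genes. None of the 6 had an unadjusted p under 0.05 in it, against 2367 of all genes. Voom called none of them, against 260 of all genes. The untreated lines differed in 4 of 6 candidates, TBP, HPRT1, YWHAZ and PPIA, against 69% of 13098 genes. Any difference among the 4 groups was called for the same 4, against 76.5% of 13127 genes, and not for IPO8 (adjusted p = 0.660) or POLR2A (adjusted p = 0.107).

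A call that misses the threshold does not show a steady level, so the confidence intervals were also set against a margin of 0.5 on the log2 scale. Libraries labelled KGN gave a 95% interval of the treatment difference within this margin for 5 of 6 candidates, all but POLR2A, and for 71.9% of all genes. In those labelled COV434 it did so for 2 of 6, TBP and YWHAZ, and for 27.2% of all genes. With the library number as a block, a pairing that no label states, it did so for 3 of 6, HPRT1 being the added one, and for 47.3% of all genes. Between the untreated lines only the interval of IPO8 lay within the margin, as did those of 14.3% of genes. With or without the block, no candidate (0 of 6) was held within the margin in all 3 comparisons. IPO8 missed it in the treatment difference labelled COV434 alone, and TBP and YWHAZ between the untreated lines alone.

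**Figure D2:**
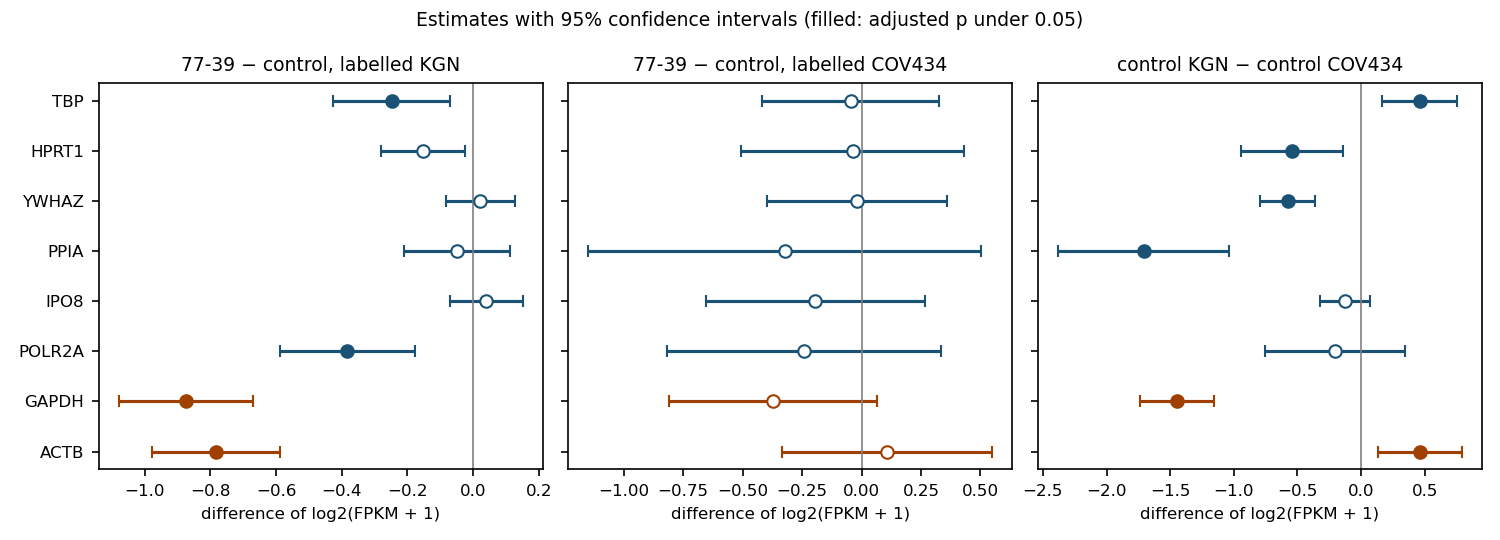
Differences of log2(FPKM + 1) with 95% confidence intervals (horizontal axes) for 77-39 against control in each labelled line and for the untreated lines, candidates in blue, GAPDH and ACTB in brown; filled points had an adjusted p under 0.05. In the libraries labelled KGN the intervals of YWHAZ, PPIA and IPO8 included 0 and those of TBP, HPRT1 and POLR2A lay below it, HPRT1 with an adjusted p of 0.0693, and in those labelled COV434 all were wide and included 0.

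GAPDH and ACTB set the scale for these differences. The candidates were chosen because GAPDH was already known to fall after treatment in these data. Its p-values, and the tests relative to it, thus describe the values and are no independent support. GAPDH in the libraries labelled KGN was at 557, 656 and 643 FPKM untreated and at 316, 334 and 360 FPKM after 77-39. It fell by 0.87 on the log2 scale (SE 0.0859, adjusted p = 7.79e-04), and ACTB fell by 0.78 (SE 0.0819, adjusted p = 9.77e-04). Libraries labelled COV434 held GAPDH at 1729, 1591 and 1731 FPKM untreated and at 1465, 1275 and 1175 FPKM treated, without overlap, with a difference of -0.37 (SE 0.190, adjusted p = 0.721). GAPDH also differed between the untreated lines by -1.45 (adjusted p = 5.34e-05).

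Relative to GAPDH, all 6 candidates were called higher after 77-39 in the libraries labelled KGN, by 0.49 (POLR2A, SE 0.0987) to 0.92 (IPO8, SE 0.111) on the log2 scale. The background of calls was 95.8% of the 12671 genes tested, so this count says nothing particular about the candidates. The candidates relative to GAPDH in the libraries labelled COV434 differed by 0.05 (PPIA) to 0.35 (YWHAZ), and 0 of 6 passed, against 0.373% of 12060 genes. None of the 6 had an unadjusted p under 0.05 there, against 3324 of the 12060 genes.

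The spread of the 4 group means gave an order of steadiness. Its SD on the log2(FPKM + 1) scale was 0.0812 for IPO8, 0.231 for TBP, 0.244 for POLR2A, 0.322 for YWHAZ, 0.354 for HPRT1 and 0.917 for PPIA. The median over 13127 genes was 0.433, so 5 of 6 candidates lay below it and PPIA above. The share of genes with a smaller SD was 2.90% for IPO8, 24.6% for TBP, 26.7% for POLR2A, 37.4% for YWHAZ, 41.3% for HPRT1 and 78.7% for PPIA. GAPDH, at 1.05, stood at 82.9% and ACTB, at 0.323, beside YWHAZ at 37.5%. Over the 17 ways in which this SD was computed IPO8 kept a rank of 1 to 3 among the 6 and PPIA rank 6, while the others changed places. IPO8 ranged from 0.0638 to 0.146 when 1 library was left out and up to 0.160 over all 17. Quantile normalization brought YWHAZ to 0.0534 and HPRT1 to 0.0817, below IPO8 at 0.158, so the order of these 3 changes with this scaling.

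Within groups the order was another one. The SD between libraries of a group was smallest for YWHAZ (0.117) and TBP (0.146), intermediate for IPO8 (0.195) and HPRT1 (0.197), and largest for POLR2A (0.280) and PPIA (0.406), against a median of 0.170 over all genes. For IPO8 and POLR2A the spread within groups exceeded that between them, and the treated libraries labelled COV434 alone had an SD of 0.375 in IPO8. In the 3 controls labelled KGN the SD was 0.0117 for IPO8, 0.0277 for YWHAZ, 0.0459 for HPRT1 and 0.0695 for PPIA, below the median of 0.0752 over all genes, and 0.0881 for TBP and 0.171 for POLR2A, above it.

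**Figure D3:**
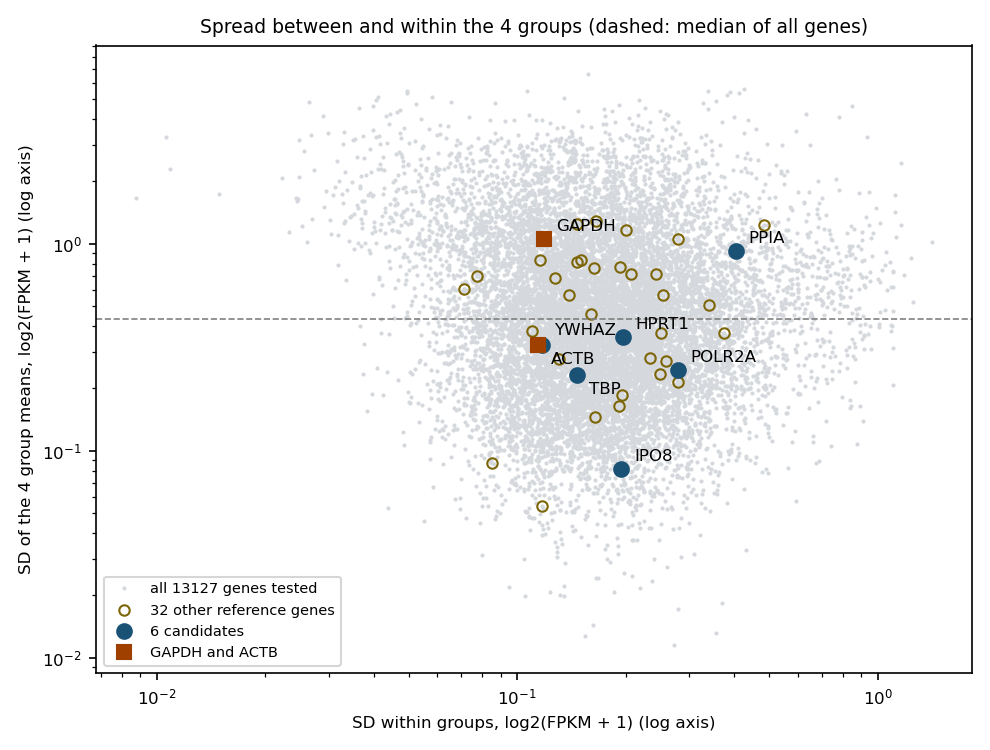
SD of the 4 group means (vertical, log axis) against the SD within groups (horizontal, log axis), both of log2(FPKM + 1), for 13127 genes (grey), 32 other reference genes (open circles), the 6 candidates (blue) and GAPDH and ACTB (squares). IPO8 was the lowest candidate at 0.0812, and PPIA, at 0.917 and 0.406, was the farthest to the upper right.

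The ratio of 2 candidates within a library does not depend on how the library was scaled. The steadiest of the 15 ratios was HPRT1 to YWHAZ, whose log2 ratio had an SD of 0.261 over 12 libraries, followed by YWHAZ to POLR2A (0.304) and IPO8 to POLR2A (0.333). The least steady was TBP to PPIA (1.07). The mean of these SDs over a gene's partners is the geNorm M value, where lower means steadier ratios to the other genes of the set. Genes that change together therefore score low. Over 12 libraries M was 0.435 for YWHAZ, 0.448 for HPRT1, 0.481 for IPO8, 0.502 for POLR2A, 0.616 for TBP and 0.828 for PPIA. With GAPDH and ACTB in the set M of PPIA was 0.801 and that of GAPDH 0.816. YWHAZ and HPRT1 came before IPO8 by this measure. Both were lower in the untreated libraries labelled KGN than in those labelled COV434, so their low M does not show a steadier level. The log2 ratio to PPIA, the least steady candidate, had an SD of 0.926 for IPO8, 0.695 for YWHAZ and 0.552 for HPRT1.

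Within the libraries labelled KGN all 6 M values were low, from 0.127 for HPRT1 and 0.140 for YWHAZ to 0.233 for POLR2A, and GAPDH reached 0.382 in the set of 8. Within those labelled COV434 they ran from 0.339 for TBP to 0.565 for PPIA, and in the set of 8 GAPDH had 0.333, beside 0.309 for TBP and 0.564 for PPIA. Without both COV434 libraries numbered 1 YWHAZ (0.399) kept the lowest and PPIA (0.895) the highest M of the 6.

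**Figure D4:**
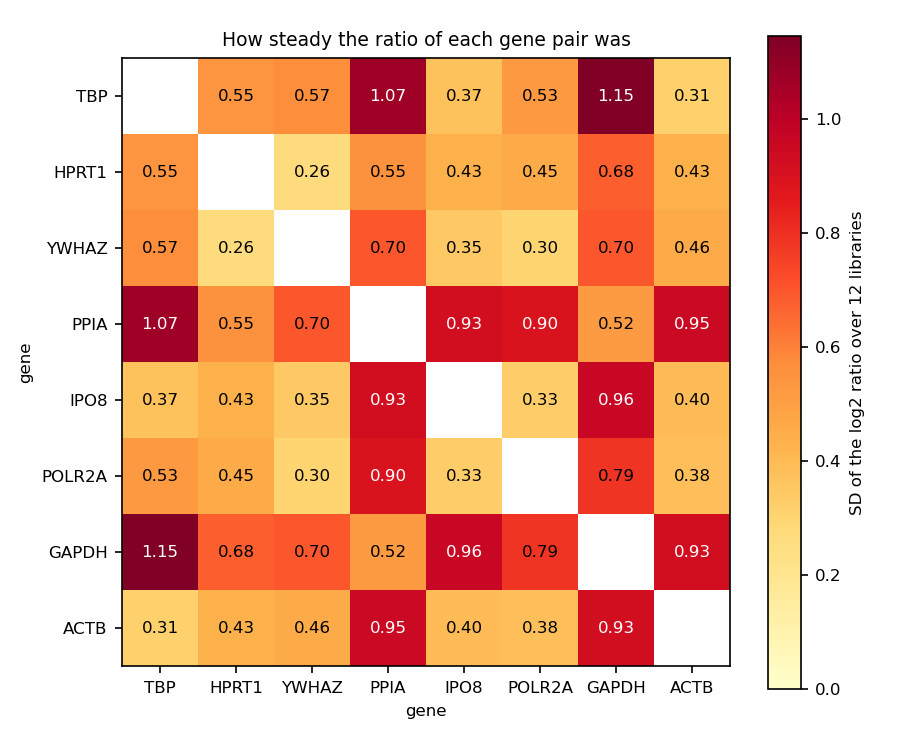
SD of the log2 ratio over 12 libraries (colour and printed value) for each pairing of the 6 candidates, GAPDH and ACTB (both axes). The ratios of PPIA and GAPDH to TBP were the least steady, at 1.07 and 1.15, and HPRT1 to YWHAZ the steadiest, at 0.26.

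The choice of reference decided the change that a gene of interest would show. Dividing by GAPDH multiplied every fold change by 1.84 in the libraries labelled KGN and by 1.29 in those labelled COV434. The geometric mean of the 6 candidates multiplied it by 1.10 and 1.11. Single candidates gave factors of 0.971 (IPO8) to 1.32 (POLR2A) in the first and of 1.01 (YWHAZ) to 1.25 (PPIA) in the second.

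SIRT3, the mitochondrial deacetylase that 77-39 inhibits, shows the size of this shift in the libraries labelled KGN. Its log2 difference was -0.09 ± 0.0961 (SE of a difference of 3 and 3) from FPKM, 0.78 ± 0.0741 divided by GAPDH, 0.69 ± 0.151 divided by ACTB and 0.04 ± 0.0878 divided by the mean of the candidates. CDKN1A, the cell cycle inhibitor p21, went from 0.05 ± 0.0477 to 0.93 ± 0.103 and 0.19 ± 0.0459 with FPKM, GAPDH and the candidates. The limma test on FPKM gave adjusted p-values of 0.475 for SIRT3 and 0.499 for CDKN1A there. In the libraries labelled COV434 the same 3 scales gave CDKN1A 0.68 ± 0.0409, 1.05 ± 0.117 and 0.82 ± 0.0613. The study's qPCR measured IL6, IL1B and CXCL2, and its methods list no primers for SIRT3 or CDKN1A. In the libraries labelled KGN IL6 and CXCL2 were at 0 in all 6 and IL1B at 0 to 6 reads, so no difference is given for them there. In each library labelled COV434 they rested on few reads, 30 to 164 for IL6, 20 to 78 for IL1B and 23 to 95 for CXCL2. The cytokine gene IL6 had 1.05 ± 0.529, 1.43 ± 0.597 and 1.202 ± 0.475 in the libraries labelled COV434, and IL1B 1.28 ± 0.251, 1.65 ± 0.296 and 1.42 ± 0.230. The chemokine gene CXCL2 had -0.01 ± 0.668, 0.36 ± 0.742 and 0.14 ± 0.643, all within 1 SE of 0. No test was run on the values divided by ACTB or by the candidates. The test relative to GAPDH covered all genes that averaged 1 FPKM or more, and its results for these genes are not given here. Nor are those of the FPKM test in the libraries labelled COV434. There IL1B averaged under 1 FPKM and was not tested at that filter. IL6 overlapped there in FPKM, reaching 2.37 untreated and starting at 2.26 treated.

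**Figure D5:**
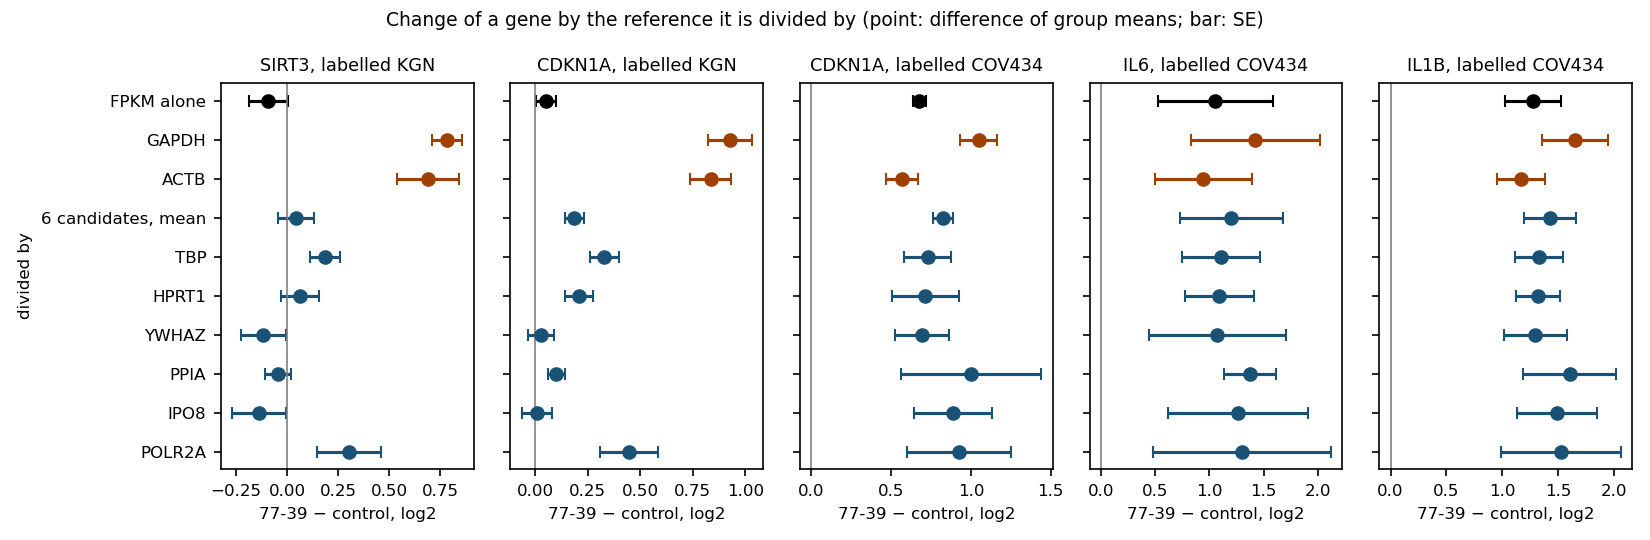
Log2 difference of 77-39 and control (horizontal axes; point, difference of group means; bar, SE) for SIRT3, CDKN1A, IL6 and IL1B in the labelled lines, from FPKM alone (black), divided by GAPDH or ACTB (brown) and divided by the candidates (blue). SIRT3 in the libraries labelled KGN moved from -0.09 to 0.78 with GAPDH and to 0.04 with the mean of the 6 candidates.

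Each candidate was also set beside the other genes of its own machinery, from lists of known members. Of the 12 subunits of RNA polymerase II, 4 passed the test in the libraries labelled KGN: POLR2A with POLR2E (-0.29) and POLR2H (-0.23) fell, POLR2B, the second-largest subunit, rose by 0.22, and the median of the 12 was -0.14. Of the 16 TFIID subunits 5 passed, of which TAF13 rose by 0.63 and TAF7 by 0.14, TAF5 fell by 0.24 and TAF8 by 0.28 beside TBP, with a median of -0.01. Among 6 tested 14-3-3 genes YWHAE fell by 0.28 and YWHAB rose by 0.25, and YWHAZ lay between them. Among 16 cyclophilins 5 passed: PPIF, the mitochondrial cyclophilin D, fell by 0.46 and PPIH by 0.31, and PPIC rose by 0.36, PPID by 0.42 and CWC27 by 0.40. Of 10 purine salvage genes tested, ADK (0.32) and NT5C2 (0.21) rose and GMPR2 fell by 0.18. Of 16 importins 8 passed, 5 higher and 3 lower, led by TNPO1, which rose by 0.41, and KPNA2, which fell by 0.39. Each list thus held genes called in both directions, and 34% of all 12671 genes were called in this test, with a median difference of 0.01, so these counts say nothing particular about the lists. Of the 77 genes of these lists tested in the libraries labelled COV434, 0 passed with limma. An unadjusted p under 0.05 was found for 2 of them, against 965 of all 12060 genes tested.

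Among 32 other genes in use as references, 13 had an SD of group means below the median of all genes, and the median of the 32 was 0.565, against 0.283 for the 6 candidates. The smallest were ALAS1, the first enzyme of haem synthesis, at 0.0541, RAB7A, a late endosome GTPase, at 0.0873, and VCP, an ATPase of protein degradation, at 0.146. Only ALAS1 was below IPO8. The largest were PGK1 at 1.29, SDHA at 1.25 and B2M at 1.23. The treatment test in the libraries labelled KGN was passed by 15 of the 32, 11 of them lower, where 34% of all genes passed. PGK1, with the largest SD, differed there by -0.93.

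The genes whose profile over the 12 libraries was most like that of a candidate were found by the root mean square difference of centred log2(FPKM + 1). For IPO8 these were MGAT4A (0.04997), CCNT1 (0.0652) and STT3B (0.0681). For YWHAZ they were TTC12 (0.0750), ZNF398 (0.0766) and GOSR1 (0.0783), for HPRT1 ZCCHC17 (0.0719), NAXE (0.0738) and H3F3B (0.0776), and for TBP KCTD5 (0.0844), TRIT1 (0.0859) and AC008124.1 (0.0891). POLR2A was nearest to KDM4B (0.0890), WDR62 (0.103) and RAI1 (0.103). PPIA had the least close neighbours, LINC01273 (0.126), CYSTM1 (0.154) and IL32 (0.167), of which LINC01273 and IL32 had mean levels near 1 FPKM.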

How the data were processed

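The authors aligned reads with HISAT2 (version 2.0.5, per the submitters' processing notes), counted them on genes and deposited FPKM. The counter is not given in the sources used here. The notes name mouse builds (mm10, mm8), but gene IDs and coordinates in the table are those of human GENCODE release 29 on GRCh38. Reads were recovered as FPKM times gene length over the value of 1 read, and were whole within 0.05 for 100% of genes in each library. The total behind the deposited FPKM was 1.07 to 1.10 times the recovered reads where KGN is the label and 0.911 to 0.978 times where it is COV434, so levels between lines carry a scaling difference.

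Values were analysed as log2(FPKM + 1), which understates changes of low genes, keeping genes that averaged 1 FPKM or more over the libraries of a fit. All 6 candidates passed this filter in every fit. Each line was fitted alone with limma 3.58.1 (R 4.3.3; lmFit, eBayes with a trend), the untreated lines alone, and the interaction over 12 libraries. Tests were two-sided and adjusted by Benjamini-Hochberg over all genes tested. The fits were tested on simulated data. Steadiness of level was described by SDs of group means, and steadiness of ratios by geNorm M values.  The candidates and lists were chosen with earlier results of these data known. Named genes were the 6 candidates, GAPDH and ACTB, 5 genes for the shift by reference, the 3 smallest and 3 largest of the other references, up to 4 examples a list by p, the 3 nearest profiles and the 5 steadiest genes. Further called list members were named after their values were seen.

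Same-numbered libraries labelled COV434 deviated together (correlations 0.400, 0.474 and 0.166), but not those labelled KGN (-0.02 each). Control library 3 labelled COV434 also had 0.154 with treated library 2. No label states a pairing, so the block rests on a pattern seen in these same values. With the replicate block 0 of 6 candidates were called in the libraries labelled COV434, as without it. Alternatives were another pseudocount, other filters, median-ratio scaling, quantile normalization, the replicate block, 1 fit of all libraries, each library left out and, chosen after seeing the data, voom on the recovered reads and the removal of both COV434 libraries numbered 1.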

Additional observations from a re-analysis of the deposited data

Results flagged for a closer look

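The response to 77-39 differed between the labelled lines for 2 of the named genes by the interaction test over 12 libraries, and for none of the 6 candidates. ACTB fell in the libraries labelled KGN and had a difference of 0.11 in those labelled COV434, an interaction of -0.89 (SE 0.181, limma adjusted p = 0.0247). Leaving out 1 library at a time gave -0.99 to -0.81, with the adjusted p above 0.05 in each case where a library labelled KGN was left out. It was -0.15 (adjusted p = 0.737) after quantile normalization. CDKN1A had an interaction of -0.62 (SE 0.114, adjusted p = 0.0183), with a difference of 0.68 in log2 FPKM in the libraries labelled COV434 and 0.05 in those labelled KGN. Leaving out 1 library at a time gave -0.66 to -0.59, with adjusted p-values of 0.0132 to 0.0689.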

How the results depend on the processing

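The number of the 6 candidates called for 77-39 in the libraries labelled KGN was 2. It became 1 with a filter at 0.1 FPKM, 0 with no filter and 0 in 1 fit of all 12 libraries. With the replicate block it was 1, and TBP had an adjusted p of 0.0986. Same-numbered libraries labelled KGN did not deviate together, and no label pairs them. Leaving out 1 library gave 0 to 2. The lower filters tested more genes, 21625 and 32824 in place of 12671, and the cause of the other changes was not tested. Between the untreated lines the number called, 4, became 2 after quantile normalization, and 2 to 4 when 1 library was left out, 2 without KGN control library 1. Any difference among the 4 groups was called for 2 candidates in place of 4 after quantile normalization, the cause of which was not tested. The other counts were the same under every alternative run, including the block: 0 of 6 labelled COV434, 0 for the interaction, and 6 and 0 relative to GAPDH. Calls over all genes did change. Relative to GAPDH labelled COV434 they were 45 of 12060, 3240 with the block, 8968 of 27780 with no filter and 3640 of 12014 without both libraries numbered 1. The interaction had 472 of 13127, and 2007 of 13184 without those libraries. An unchanged 0 of 6 thus stood beside different shares of all genes. HPRT1 labelled KGN was called with median-ratio scaling (adjusted p = 0.0415) and with voom (0.0444). With the library number as a block in the libraries labelled COV434, ACTB relative to GAPDH was called (0.48, adjusted p = 0.0124), and the number of all genes called for 77-39 rose from 5 to 87.

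Directions turned, in values that passed no test, for YWHAZ labelled KGN with median-ratio scaling (-0.0013), and after quantile normalization for ACTB labelled COV434 (-0.25) and, between untreated lines, for IPO8 (0.15), POLR2A (0.23) and ACTB (-0.12), the last of which had been called. POLR2A between lines was 0.033 without both COV434 libraries numbered 1. Leaving out 1 library turned the direction within these ranges: labelled KGN, PPIA -0.10 to 0.0040 and YWHAZ -0.0022 to 0.043; labelled COV434, TBP -0.16 to 0.039, HPRT1 -0.22 to 0.083, YWHAZ -0.14 to 0.072 and IPO8 -0.34 to 0.016; interaction, HPRT1 -0.23 to 0.069, YWHAZ -0.049 to 0.16, PPIA -0.041 to 0.60 and POLR2A -0.38 to 0.058; between lines, POLR2A -0.41 to 0.033; relative to GAPDH labelled COV434, PPIA -0.29 to 0.45 and POLR2A -0.029 to 0.35. The SD of group means moved by over 1 within-group SD for HPRT1 (0.0817) and YWHAZ (0.0534), both after quantile normalization. With 3 libraries a group, and a median half-width of the 95% interval of 0.427 labelled COV434 against 0.171 labelled KGN, small treatment differences were not detectable in the former.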

Other observations

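Among the 4615 genes that averaged 10 FPKM or more, the 5 with the smallest SD of the 4 group means were none of the genes in use as references. They were SH3GLB2 (0.0200), UPF3A, a factor of nonsense-mediated decay (0.0208), SMARCA5, the ATPase of the ISWI remodelling complexes (0.0208), KARS, the lysyl-tRNA synthetase (0.0223), and CDC123 (0.0242). Their SDs within groups, 0.123 to 0.185, were of the size of those of TBP and IPO8. They were picked for this value among many genes, so their rank is a description of these 12 libraries.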
